A study of Mus musculus with 12 samples.

Results

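The glypicans (Gpc1 to Gpc6) and the syndecans (Sdc1 to Sdc4) were examined in bulk RNA-seq libraries of cells sorted from mouse lung for Pdgfra. The members were chosen by gene name as the 10 genes of both families, 6 glypicans and 4 syndecans, among 40760 genes with deposited counts. All 10 had a row in the count table, and 8 passed the filter on low counts that preceded testing. Gpc2 and Gpc5 did not pass it and are described by their counts. The study compared wild-type mice with mice lacking Pear1, an EGF-like repeat receptor, after bleomycin (bleo), an agent used to induce lung fibrosis, or after vehicle. Each of the 4 groups held 3 libraries: WT vehicle and WT bleo from wild-type mice, and Pear1-/- vehicle and Pear1-/- bleo from the mutants. All mice were male and, by the study's general methods, young adults of C57BL/6 background. Pear1-/- mice carried a constitutive knockout-first allele, in which an inserted cassette traps the transcript, so the disruption of Pear1 was not confined to the sorted cells. Bleo was given into the airway. The dose and day of these libraries and the number of mice behind each one are not given in the sources used here, so p-values measure the spread between libraries, which may be technical.

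Both families are heparan sulfate proteoglycans, core proteins of the cell surface that carry long sulfated sugar chains. Glypicans are held to the membrane by a GPI lipid anchor, whereas syndecans span it and have a short cytoplasmic tail that binds scaffold proteins. Through their chains they hold growth factors, morphogens, chemokines and matrix proteins at the cell surface, and glypicans are best known for tuning Wnt, Hedgehog, BMP and FGF signalling. In lung, Sdc1 is known mainly from epithelium and plasma cells, Sdc4 is a component of focal adhesions, and Sdc2 and several glypicans are known from fibroblasts.

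Between 6702948 and 10447101 counts were obtained per library. Genes with 3 counts or fewer in a library were treated as undetected, a floor equal to 0.287 to 0.448 CPM (counts scaled to a common library total) that covers counting error only. Normalized counts are the authors' values, each count divided by the size factor of its library. Pear1 itself had 547 ± 28.8 and 519.7 ± 24.0 normalized counts (SD, n = 3) in WT and Pear1-/- vehicle, and 254 ± 14.0 and 357 ± 14.2 after bleo. Vehicle groups differed by -0.08 on the log2 scale (edgeR adjusted p = 0.47), and after bleo Pear1-/- was above WT by 0.48 (adjusted p = 0.00012). The counts are given for the whole gene, with the parts before and after the cassette not counted apart, so the fall of an intact transcript was not tested. Genotypes are named as the labels give them. WT vehicle replicate 2 stood apart from its group. The chi-square of the counts per degree of freedom was 21.2 and 21.8 between it and the other WT vehicle libraries, against 1.58 between those, and 1.73 to 2.67 between it and the Pear1-/- vehicle libraries. The label was kept as deposited, and members' values that this library moved past the threshold, turned or changed by over 1.5 times are also given without it. The sort gene Pdgfra was detected in every library, and leukocyte, epithelial and plasma cell markers were present in all of them, as described with the marker lists. In bulk samples, fewer cells of a type and less RNA per cell cannot be told apart.

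The genes lie on 8 chromosomes of GRCm38, with coordinates from GENCODE M21. Gpc3 (X:52272426-52613950, minus strand) and Gpc4 (X:52053021-52165252, minus strand) are neighbours, 107.2 kb apart with 0 coding genes between them. Gpc5 (14:115092215-116525179, plus strand) and Gpc6 (14:116925315-117976544, plus strand) are also neighbours, 400.1 kb apart, again with 0 coding genes between. The other glypicans are Gpc1 (1:92831645-92860779, plus strand) and Gpc2 (5:138273655-138280005, minus strand). The syndecans are Sdc1 (12:8771323-8793715, plus strand), Sdc2 (15:32920723-33034935, plus strand), Sdc3 (4:130792537-130826319, plus strand) and Sdc4 (2:164424247-164443887, minus strand). Every syndecan has 5 exons in its longest coding transcript, whereas the glypicans have 8 to 10. On the opposite strand, exons of Gpc1 overlap Ankmy1, those of Gpc5 overlap Gm20713 and those of Sdc3 overlap Gm12970 and Gm26716, and it is not stated whether counting used strand, so such reads cannot be told apart. Ankmy1 had at most 23 counts in a library, Gm20713 at most 2 and Gm12970 at most 3, and the reads of Gm26716 were not analysed here. Gpc2 shares exon sequence with Gm43720, which had at most 3 counts.

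Promoter windows of 7 members were matched by symbol in the RefSeq table (GRCm38). The others are Gpc1, Gpc6 and Sdc2. Bases downstream of the GENCODE start were left out, which left nothing to show of Gpc4 and Sdc4. The windows of Gpc3, Sdc1 and Sdc3 are shown because these genes carry the opposite patterns described below: Gpc3 fell after bleo in both genotypes, Sdc3 rose in both, and Sdc1 was highest in Pear1-/- bleo. They lie at X:52613975-52614224 (minus strand), 12:8771146-8771322 (plus strand) and 4:130792287-130792536 (plus strand), and are printed 5′ to 3′ on the strand of the gene.
Gpc3: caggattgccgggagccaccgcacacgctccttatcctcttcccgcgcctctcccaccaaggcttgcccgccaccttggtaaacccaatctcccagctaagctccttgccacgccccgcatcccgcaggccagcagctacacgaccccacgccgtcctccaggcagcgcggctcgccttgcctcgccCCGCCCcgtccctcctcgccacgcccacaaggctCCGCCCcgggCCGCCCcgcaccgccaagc
Sdc1: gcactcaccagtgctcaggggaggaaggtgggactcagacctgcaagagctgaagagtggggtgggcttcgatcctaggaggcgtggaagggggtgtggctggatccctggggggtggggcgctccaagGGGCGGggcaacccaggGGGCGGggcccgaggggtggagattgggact
Sdc3: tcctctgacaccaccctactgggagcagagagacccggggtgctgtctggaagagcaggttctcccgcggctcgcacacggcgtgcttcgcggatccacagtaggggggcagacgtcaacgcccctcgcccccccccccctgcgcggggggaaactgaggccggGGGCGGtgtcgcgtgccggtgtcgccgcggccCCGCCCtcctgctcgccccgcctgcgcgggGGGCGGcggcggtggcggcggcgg
Capitals mark the GC box letters GGGCGG or their complement CCGCCC. Gpc3 and Sdc3 held 3 matches each and Sdc1 held 2. Of all windows cut to the same length, 32.7% held at least 1 match at 250 bases and 20.6% at 177 bases, the length of the Sdc1 window. The cut to 177 bases kept the end of each window farthest upstream, whereas the Sdc1 window reaches the GENCODE start of its gene. TATAA, searched on both strands and held by 22.8% and 16.4% of windows at those lengths, had 0 matches in the 3 sequences, and TGANTCA (6.75% and 4.84%) also had 0. CCAAT (33.8% and 24.4%) had 1 match in Gpc3, 1 in Sdc1 and 0 in Sdc3. The GC content was 71.6% for Gpc3, 68.4% for Sdc1 and 76.4% for Sdc3. The Sdc1 window also overlaps an exon of the non-coding gene Gm4755. A match is a description of the letters and not a site.

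Levels between genes were compared as normalized counts per kb of exon. Sdc4 had the highest level in each group, with means of 1424 and 1593 per kb in WT and Pear1-/- vehicle and 1001 and 1262 per kb after bleo in the same genotypes. Gpc3 came next, with 1422, 1226, 493 and 769.8 per kb. In WT vehicle the ranges of Sdc4 and Gpc3 overlapped, and with the longest coding transcript as the length Gpc3 came first there. Sdc2 followed them in both vehicle groups (631 and 521 per kb). In WT bleo the third place was held by Sdc3, at 269 per kb, and in Pear1-/- bleo by Sdc1, at 505 per kb. In WT bleo, Sdc2 (207 per kb) and Sdc1 (201 per kb) overlapped. In Pear1-/- bleo, Gpc4 (184 per kb) and Sdc3 (182 per kb) overlapped. Gpc4, Gpc1, Sdc3 and Gpc6 formed a chain of overlapping ranges in WT vehicle, with means of 60.1 to 82.9 per kb. Gpc2 and Gpc5 held the last places in every group, with means of at most 3.79 per kb.

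The make-up of both families varied between groups. Of the glypican level per kb, Gpc3 made up 86.0% ± 1.52 and 83.8% ± 0.977 in WT and Pear1-/- vehicle, and 74.2% ± 0.722 and 68.9% ± 1.5 after bleo in WT and Pear1-/- (SD, n = 3). Gpc4 made up 5.08% ± 0.817, 6.42% ± 0.853, 10.1% ± 0.848 and 16.5% ± 1.09. The share of Gpc1 was 4.88% and 4.19% in the vehicle groups and 13% and 13.5% in the bleo groups. Among syndecans, Sdc4 made up 60.4% ± 2.19, 64.0% ± 0.275, 59.7% ± 1.17 and 54.2% ± 1.16. Sdc3 made up 2.73% and 2.83% in the vehicle groups, 16% ± 1.02 in WT bleo and 7.80% ± 0.134 in Pear1-/- bleo. Sdc1 made up 10.1% ± 2.05, 12.2% ± 0.943, 12% ± 0.508 and 21.7% ± 0.722. The summed glypican level was 1651 ± 163 and 1463 ± 10.4 per kb in WT and Pear1-/- vehicle, and 664 ± 13.6 and 1118 ± 26.7 per kb after bleo. That of the syndecans was 2358 ± 65.3 and 2489.5 ± 77.3 per kb with vehicle, and 1678 ± 26.5 and 2326 ± 17.7 per kb after bleo. These shares are descriptions and were not tested.

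**Figure D1:**
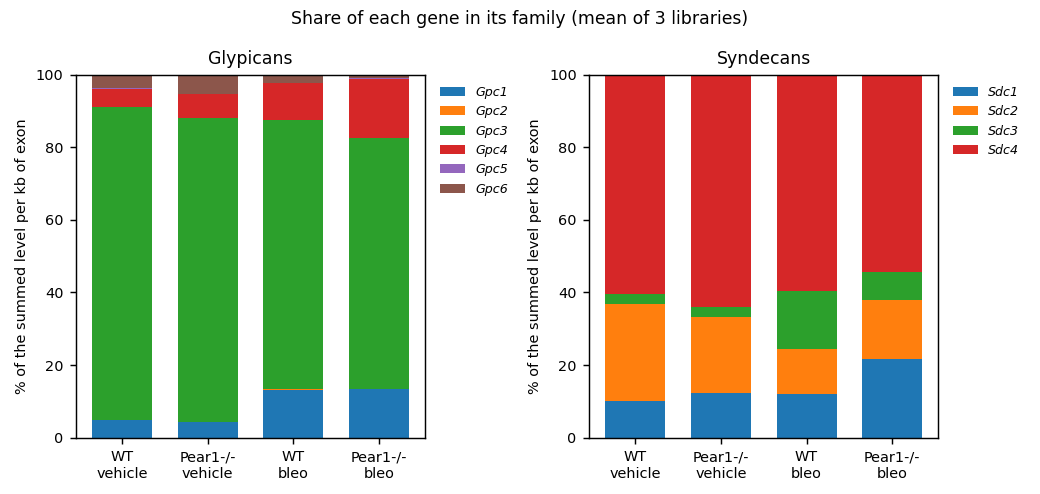
Share of each gene in the summed level per kb of exon of the glypicans (left) and of the syndecans (right), in %, as stacked bars of the mean of 3 libraries per group. Gpc3 takes 86.0% of the glypican bar in WT vehicle and 68.9% in Pear1-/- bleo, and Sdc3 takes 16% of the syndecan bar in WT bleo.

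Gpc3, a glypican that restrains Hedgehog signalling and whose loss causes overgrowth, had 4064, 3316 and 4096 normalized counts in WT vehicle replicates 1, 2 and 3. Pear1-/- vehicle had 3313, 3304 and 3277. After bleo, Gpc3 was at 1345, 1319 and 1313 in WT and at 2076, 2072.5 and 2064 in Pear1-/-. Every bleo library lay below every vehicle library, and every Pear1-/- bleo library lay above every WT bleo library. The log2 fold change between bleo and vehicle was -1.52 in WT (standard error 0.080, adjusted p = 2.52e-10) and -0.67 in Pear1-/- (standard error 0.078, adjusted p = 3.15e-06). Pear1-/- bleo exceeded WT bleo by 0.63 (standard error 0.079, adjusted p = 1.02e-05). Pdgfra, the receptor used for the sort, moved beside it, with log2 fold changes of -1.74, -0.80 and 0.80 in the same comparisons. The part of Pdgfra level in the Gpc3 result was not tested.

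Gpc4, the X-linked neighbour of Gpc3 and a glypican of Wnt and FGF signalling, took another course. Its normalized counts were 209.8, 233 and 216 in WT vehicle and 229, 229 and 289 in Pear1-/- vehicle. After bleo they were 184, 191 and 158 in WT and 493, 530.4 and 443 in Pear1-/-. The Pear1-/- bleo libraries lay above all others, and the WT bleo libraries lay below all vehicle libraries. Gpc4 rose by 0.98 on the log2 scale after bleo in Pear1-/- (standard error 0.104, adjusted p = 1.14e-06). In WT the change was -0.30 (standard error 0.116, adjusted p = 0.0319), a call that was lost under several settings. The change itself shrank to -0.17 with low-count genes kept in the fit (adjusted p = 0.274), to -0.19 without WT vehicle replicate 2 (adjusted p = 0.159) and to -0.18 without WT bleo replicate 3 (adjusted p = 0.246). It stayed between -0.31 and -0.26, with the call lost, under DESeq2's Wald test (adjusted p = 0.0548) and without WT vehicle replicate 3, Pear1-/- vehicle replicate 1 or 2, WT bleo replicate 1 or 2, or any one Pear1-/- bleo library. The excess of Pear1-/- bleo over WT bleo was 1.45 (standard error 0.108, adjusted p = 4.52e-08), the largest difference between these groups among the tested members.

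Gpc1, a widely expressed glypican that binds FGF2, had 468, 306 and 483 normalized counts in WT vehicle and 298, 322 and 329.6 in Pear1-/- vehicle. After bleo it had 472, 434 and 430.3 in WT and 765, 826 and 742 in Pear1-/-. The Pear1-/- bleo libraries were again above all others, while WT bleo overlapped WT vehicle. The log2 fold change after bleo was 1.30 in Pear1-/- (standard error 0.129, adjusted p = 5.37e-07). In WT it was 0.10 (standard error 0.130, adjusted p = 0.494) and -0.02 without WT vehicle replicate 2. After bleo, Pear1-/- was above WT by 0.79 (standard error 0.126, adjusted p = 0.000106).

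Gpc6, a glypican needed for growth of long bones, had 309, 525 and 324 normalized counts in WT vehicle and 548, 475 and 505 in Pear1-/- vehicle. Bleo libraries had 101, 106 and 106 in WT and 68.4, 92.0 and 75.3 in Pear1-/-. All bleo libraries lay far below all vehicle libraries, and those of Pear1-/- bleo lay below those of WT bleo. The log2 fold change of Gpc6 after bleo was -1.88 in WT (standard error 0.176, adjusted p = 2.02e-07), or -1.52 without WT vehicle replicate 2. In Pear1-/- it was -2.69 (standard error 0.177, adjusted p = 5.4e-09). Pear1-/- bleo minus WT bleo, at -0.42 (standard error 0.203), had an adjusted p of 0.105. It passed when only these groups were fitted (adjusted p = 0.00453), with low-count genes kept in the fit (adjusted p = 0.0324) and without WT vehicle replicate 2 (adjusted p = 0.005). Epithelial markers (8 genes) were set beside Gpc6. They summed to 4748 to 6044 CPM in WT vehicle and 5684 to 6495 CPM in Pear1-/- vehicle, and to 1636 to 1664 CPM and 727 to 735 CPM after bleo in WT and Pear1-/-. Of the 8, 5 fell and 2 rose after bleo in WT (Epcam by 0.36 and Cdh1 by 0.90 on the log2 scale), and 7 fell and 1 rose in Pear1-/- (Cdh1 by 1.26). Other lists fell too. Of 6 fibroblast markers, 4 fell after bleo in each genotype, and Col1a1 and Col1a2 rose. The log2 changes of the falling ones were -1.92 to -1.32 in WT and -2.41 to -0.80 in Pear1-/-. Endothelial, mesothelial, plasma cell, and pericyte and smooth muscle sums were also lower after bleo in both genotypes. Leukocyte and macrophage sums were higher. The part of any of these cells in the Gpc6 result was not tested.

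Gpc2 and Gpc5, glypicans known mainly from the nervous system and from brain and kidney, were near the limit of detection. Gpc2 had 1 to 12 counts in a library, with 8 and 21 counts summed over WT and Pear1-/- vehicle and 23 and 10 counts after bleo. Gpc5 had 22, 1 and 20 counts in WT vehicle replicates 1, 2 and 3, and 3, 1 and 3 counts in Pear1-/- vehicle. In WT bleo it had 0 counts in all 3 libraries, and in Pear1-/- bleo 0, 0 and 3. Thus Gpc5 was above the floor of 3 counts in WT vehicle replicates 1 and 3 and in no other library, and a difference between the other groups was not detectable at this depth.

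**Figure D2:**
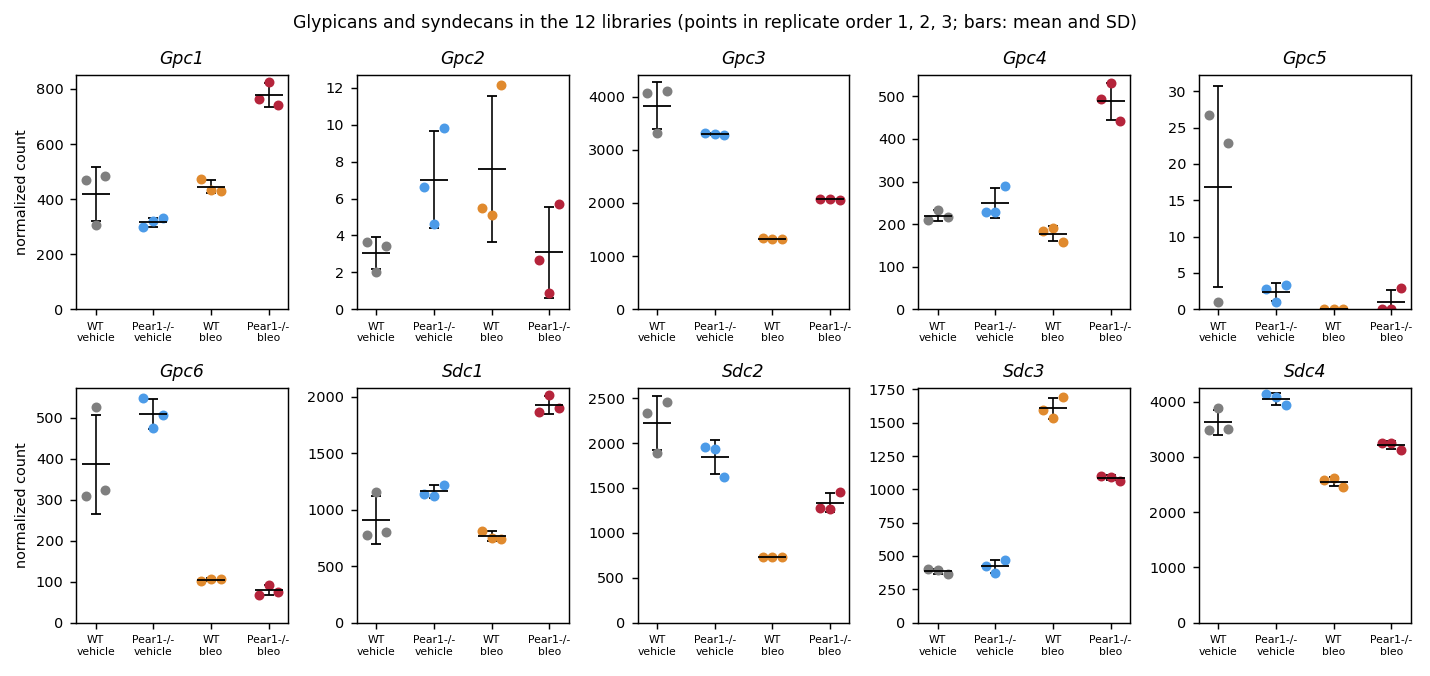
Normalized counts of the 10 genes in the 12 libraries, 1 panel per gene with its own linear axis from 0. Points are libraries in the order of replicates 1, 2 and 3, and bars give the mean and SD of 3 libraries. Gpc1, Gpc4 and Sdc1 are highest in Pear1-/- bleo, and Sdc3 is highest in WT bleo. WT vehicle replicate 2 lies outside the span of replicates 1 and 3 for every gene but Sdc3, though Gpc2 had only 2 or 3 counts in these libraries.

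Sdc4, the syndecan of focal adhesions, had 3487, 3888 and 3508 normalized counts in WT vehicle and 4146.5, 4091 and 3936 in Pear1-/- vehicle. After bleo it had 2578, 2616 and 2458 in WT and 3259.6, 3249 and 3130.3 in Pear1-/-. Groups did not overlap, and they stood in the order Pear1-/- vehicle, WT vehicle, Pear1-/- bleo and WT bleo. The log2 fold change after bleo was -0.50 in WT (standard error 0.064, adjusted p = 7e-06) and -0.33 in Pear1-/- (standard error 0.064, adjusted p = 0.000368). The injured genotypes differed by 0.32, Pear1-/- being higher (standard error 0.064, adjusted p = 0.000795).

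Sdc2, a syndecan of mesenchymal cells, had 2334.5, 1884 and 2454.5 normalized counts in WT vehicle and 1961, 1935 and 1622 in Pear1-/- vehicle. After bleo, WT had 729, 729 and 728 and Pear1-/- had 1274, 1269 and 1455.5. WT bleo was lowest and Pear1-/- bleo lay between it and the vehicle groups, with no overlap. The log2 fold change after bleo was -1.60 in WT (standard error 0.104, adjusted p = 3.11e-09) and -0.46 in Pear1-/- (standard error 0.101, adjusted p = 0.00105). Pear1-/- was above WT after bleo by 0.86 (standard error 0.103, adjusted p = 7.1e-06). Pdgfra moved in the same directions, by the values given beside Gpc3, and its part in the Sdc2 result was not tested.

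Sdc1, which encodes CD138, had 773, 1152 and 803 normalized counts in WT vehicle and 1138, 1119.7 and 1221 in Pear1-/- vehicle. The bleo libraries had 812, 746 and 736 in WT and 1860.2, 2011 and 1898 in Pear1-/-. All Pear1-/- bleo libraries lay above all others. Sdc1 rose by 0.73 on the log2 scale after bleo in Pear1-/- (standard error 0.115, adjusted p = 5.87e-05). In WT the difference was -0.24 (standard error 0.118, adjusted p = 0.0848), and it turned to 0.03 without WT vehicle replicate 2. It passed the test without WT vehicle replicate 1 (-0.34, adjusted p = 0.0214) or replicate 3 (-0.32, adjusted p = 0.0335). The excess of Pear1-/- bleo over WT bleo was 1.32 (standard error 0.117, adjusted p = 3.07e-07). Because CD138 also marks plasma cells and epithelium, those lists were set beside it. The summed level of 6 plasma cell markers was 1124 to 1194 CPM in WT bleo and 8066 to 8361 in Pear1-/- bleo, with 4 of the 6 higher in the latter. In the vehicle groups it was higher still, 9975 to 16040 and 14930 to 18570 CPM, where Sdc1 was lower than in Pear1-/- bleo. The 8 epithelial markers were lower in sum in Pear1-/- bleo (727 to 735 CPM) than in WT bleo (1636 to 1664 CPM), the direction opposite to Sdc1. Of these markers 5 were lower and 1, Cdh1, was higher (0.40), while Krt8 and Krt18 did not pass the test (0.06 and -0.07). No marker of either list was at or under the floor throughout a group, and the part of these cells in the Sdc1 result was not tested.

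Sdc3, a syndecan first known from nerve and muscle, had 399, 393 and 363 normalized counts in WT vehicle and 424, 373 and 466 in Pear1-/- vehicle. After bleo it had 1596, 1538 and 1696 in WT and 1101, 1093 and 1067 in Pear1-/-. Every bleo library exceeded every vehicle library, and every WT bleo library exceeded every Pear1-/- bleo library. The log2 fold change after bleo was 2.08 in WT (standard error 0.084, adjusted p = 1.28e-11) and 1.37 in Pear1-/- (standard error 0.083, adjusted p = 1.93e-09). Pear1-/- minus WT after bleo was -0.58 (standard error 0.079, adjusted p = 2.37e-05). Macrophage markers were set beside it. Their summed level (8 genes) was 568 to 606 CPM in WT vehicle and 579 to 593.5 CPM in Pear1-/- vehicle, against 4717 to 4790 CPM and 2066 to 2127 CPM after bleo in WT and Pear1-/-. Of the 8, 7 rose after bleo in each genotype. In Pear1-/- bleo 6 were lower than in WT bleo and 1, Chil3, was higher (0.70). None was at or under the floor throughout a group, and their part in the Sdc3 result was not tested.

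Comparing WT bleo with WT vehicle asked how the families responded to injury in normal mice. Of the 8 tested members, 1 rose (Sdc3) and 5 fell (Gpc3, Gpc4, Gpc6, Sdc2 and Sdc4). Of all 17418 genes tested, 68.0% were called in this comparison, 31.4% higher and 36.6% lower, so that 6 of 8 is near the background. With a fold above 2 as well, 4 members were called (Sdc3 higher, and Gpc3, Gpc6 and Sdc2 lower), against 33.9% of all genes, 10.5% higher and 23.5% lower. The median log2 fold change was -0.40 over the tested members and -0.07 over all genes.

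In Pear1-/- mice, bleo against vehicle gave 4 tested members higher (Gpc1, Gpc4, Sdc1 and Sdc3) and 4 lower (Gpc3, Gpc6, Sdc2 and Sdc4). Of all genes, 62.3% were called, 28.9% higher and 33.4% lower. With a fold above 2, 3 members were called (Gpc1 and Sdc3 higher, Gpc6 lower), against 27.8% of all genes, 8.38% higher and 19.4% lower. The median was 0.20 over the tested members and -0.05 over all genes.

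Genotypes were compared after bleo to ask which genes differed between Pear1-/- and WT in these sorted samples. Pear1-/- bleo was higher than WT bleo for 6 of the 8 tested members (Gpc1, Gpc3, Gpc4, Sdc1, Sdc2 and Sdc4) and lower for 1 (Sdc3), while 46.0% of all genes were called, 22.1% higher and 23.9% lower. Gpc4 and Sdc1 also had a fold above 2, against 15.0% of all genes, 6.26% higher and 8.76% lower. The median was 0.71 over the tested members and -0.01 over all genes. Beside these, 6 fibroblast markers summed to 8484 to 8539 CPM in WT bleo and 23990 to 24640 in Pear1-/- bleo. Of the 6, 4 were higher, the collagen genes Col1a1 (1.73) and Col1a2 (1.44) more than Pdgfra (0.80) and Lum (0.62), while Dcn (0.13) and Tcf21 (-0.0032) did not pass the test. The 6 leukocyte markers summed to 5288 to 5357 CPM in WT bleo and 2787 to 2812 in Pear1-/- bleo, and all 6 were lower in the latter. The part of cell make-up in the members' differences was not tested.

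**Figure D3:**
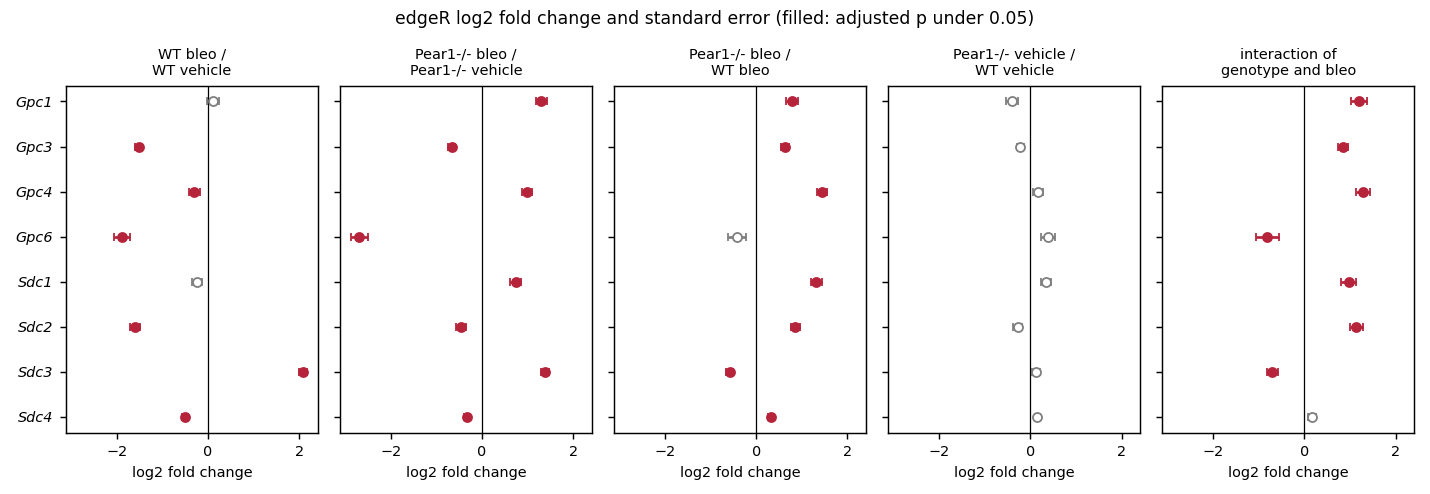
Log2 fold changes (points) with standard errors (bars) of the 8 tested members from edgeR, 1 panel per comparison. Filled red points have an adjusted p under 0.05 and open grey points do not. In the panel of Pear1-/- bleo over WT bleo, 6 members lie to the right of 0 and are filled, and in the panel of the vehicle groups all points are open.

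Whether the effect of bleo itself differed between genotypes was tested as an interaction, the log2 effect in Pear1-/- minus that in WT. It passed for 7 of the 8 tested members, 5 positive and 2 negative, against 37.0% of all genes, 17.9% positive and 19.1% negative. Positive values were 1.28 for Gpc4 (adjusted p = 1.71e-05), 1.20 for Gpc1 (adjusted p = 0.000137), 1.14 for Sdc2 (adjusted p = 2.51e-05), 0.97 for Sdc1 (adjusted p = 0.00032) and 0.85 for Gpc3 (adjusted p = 3.12e-05). These came about in different ways: Gpc1, Gpc4 and Sdc1 rose in Pear1-/- only by the test within each genotype, whereas Gpc3 and Sdc2 fell in both genotypes and fell less in Pear1-/-. Negative values were -0.70 for Sdc3 (adjusted p = 0.000266), which rose less in Pear1-/-, and -0.81 for Gpc6 (adjusted p = 0.021), which fell further. The Gpc6 call was lost without Pear1-/- bleo replicate 1 (adjusted p = 0.0637) or replicate 3 (adjusted p = 0.0537). Sdc4 gave 0.16 (standard error 0.091, adjusted p = 0.173), or 0.03 without WT vehicle replicate 2 (adjusted p = 0.808). Gpc1, Gpc4 and Sdc2 had an interaction past a fold of 2, 3 of 8 against 15.7% of all genes, 8.61% positive and 7.06% negative. Without Pear1-/- vehicle replicate 3 it was 2 of them. Without WT vehicle replicate 2 the interaction of Sdc1 was 0.68 and that of Gpc6 -1.18, both past the threshold, and 4 of the 8 passed both criteria, Gpc6 being the addition, against 21.9% of all genes in that fit. Gpc5, which entered that fit through WT vehicle replicates 1 and 3 alone, is not counted. The median was 0.91 over the tested members and -0.0012 over all genes.

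**Figure D4:**
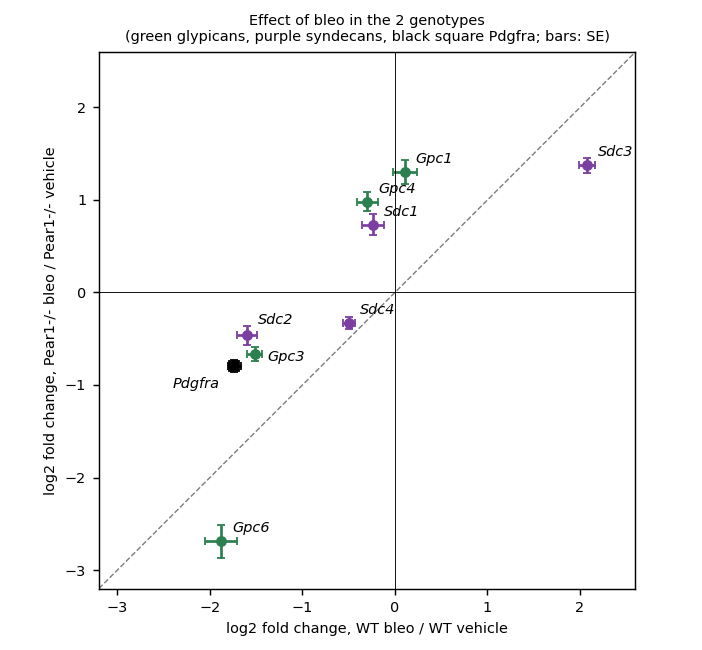
Log2 fold change of bleo over vehicle in WT (horizontal axis) and in Pear1-/- (vertical axis) for 4 glypicans (green), 4 syndecans (purple) and Pdgfra (black square), with standard errors as bars and a dashed line of equal effect. Gpc1 (0.10), Sdc1 (-0.24) and Gpc4 (-0.30) lie within 0.30 of 0 in WT and above 0 in Pear1-/-, Sdc2, Gpc3 and Pdgfra lie above the dashed line, and Gpc6 and Sdc3 lie below it.

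Vehicle groups were compared for an effect of genotype without injury. None of the 8 tested members passed in edgeR, nor in DESeq2 or limma, while 4.5% of all genes did in edgeR, 0.855% higher and 3.65% lower, and 6 of the 8 had an unadjusted p under 0.05, as did 31.6% of all genes. With a fold above 2 as well, 0 members passed, against 2.36% of all genes, 0.0344% higher and 2.33% lower. The log2 differences ranged from -0.41 for Gpc1 (adjusted p = 0.0694) to 0.39 for Gpc6 (adjusted p = 0.103). With low-count genes kept in the fit, 3 of the 10 members passed: Gpc6 (adjusted p = 0.00131), Sdc1 (adjusted p = 0.00176) and Gpc5, against 13.8% of all genes in that fit. The comparison also turned on WT vehicle replicate 2. For 8 of the 10 members, this library lay nearer to the Pear1-/- vehicle mean than to the mean of WT vehicle replicates 1 and 3, the exceptions being Gpc2 and Sdc3. Without it, all 8 tested members passed. Gpc5, which then entered the test through its counts in WT vehicle replicates 1 and 3 alone, is not counted. Pear1-/- vehicle was then lower for Gpc1 (-0.52), Sdc2 (-0.31) and Gpc3 (-0.24), and higher for Gpc6 (0.75), Sdc1 (0.62), Gpc4 (0.29), Sdc4 (0.28) and Sdc3 (0.21). The background changed with it, to 11258 of 20405 genes (55.2%), so the members' calls are not particular to them. Without any one other library, 0 genes were called, although 2955 to 6917 had an unadjusted p under 0.05.

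**Figure D5:**
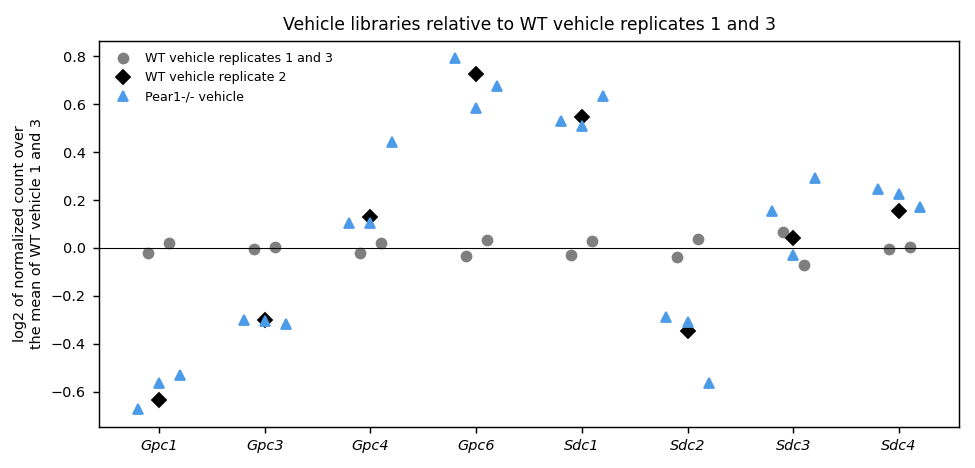
Normalized count of the 8 tested members in each vehicle library, as log2 of its ratio to the mean of WT vehicle replicates 1 and 3 (grey circles). The black diamond, WT vehicle replicate 2, lies with the blue triangles of Pear1-/- vehicle for Gpc1, Gpc3, Gpc6, Sdc1 and Sdc2.

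The enzymes that build the heparan sulfate chain were taken from a list of 27 genes, of which 23 were tested. Between WT bleo and WT vehicle 9 were higher and 7 lower, with a median of 0.04, and the 69.6% called were near the 68.0% of all genes. Ndst2, which starts sulfation of the chain, rose by 1.63 on the log2 scale, its mean going from 60.7 ± 13.8 to 185 ± 19.0 normalized counts (SD, n = 3), and Hs2st1, the 2-O-sulfotransferase, rose by 1.25. Hs3st1, a 3-O-sulfotransferase known from the antithrombin-binding sequence, fell by 1.66. In Pear1-/- mice 8 were higher and 8 lower after bleo, 69.6% against 62.3% of all genes, with a median of -0.06. Ext1, a chain polymerase, rose from 114 ± 14.5 to 335 ± 12.9 normalized counts (1.56) and Hs2st1 by 1.34, while Hs3st1 fell by 2.47 and Hs3st3b1 by 1.14. In Pear1-/- bleo, 4 were higher and 9 lower than in WT bleo, 56.5% against 46.0% of all genes, with a median of -0.23. Apart from Xylt1, these genes are named after their values were seen. Higher were Ext2 (0.67), Glce (0.68), Ndst4 (4.35, standard error 1.19) and Hs6st3 (1.705, standard error 0.51). Lower were Xylt2 (-0.26), Extl3 (-0.23), Ndst2 (-0.44), Hs2st1 (-0.47), Hs3st1 (-0.61), Hs3st3b1 (-0.48), Hs6st2 (-2.85, standard error 0.76), Hs3st3a1 (-2.04, standard error 0.57) and Xylt1. Ndst4, Hs6st3, Hs6st2 and Hs3st3a1 had low counts, under the average log2 CPM of 3 required for naming by rule. Xylt1, which attaches the initial sugar to the core protein, was lower in Pear1-/- after bleo: WT bleo had 146 ± 13.8 normalized counts and Pear1-/- bleo 55.3 ± 11.3, a log2 difference of -1.41 (standard error 0.145, adjusted p = 1.35e-06). Its interaction was -1.29 (adjusted p = 0.00017): it rose by 0.39 in WT and fell by 0.91 in Pear1-/-, whereas the interaction was positive for 5 of the 8 tested core proteins. The interaction was positive for 5 genes of the list and negative for 6, 47.8% against 37.0% of all genes. Between the vehicle groups 1 gene passed, 4.35% against 4.5% of all genes. It was Ext1 (-0.83), named here after its value was seen. The called genes between the bleo groups numbered 13, but 7 without WT bleo replicate 3 and 8 without Pear1-/- bleo replicate 1, and the 11 of the interaction fell to 7 without WT vehicle replicate 3. In the vehicle comparison there were 13 without WT vehicle replicate 2 and 0 without any one other library.

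A list of 16 genes covered the proteases that shed core proteins, the enzymes that trim chains or anchors, and proteins that bind the syndecan tail, and 15 were tested. Between WT bleo and WT vehicle 7 were higher and 5 lower, 80.0% against 68.0% of all genes, with a median of 0.20. Furin, a proprotein convertase that cleaves Gpc3, rose from 682 ± 104 to 3068 ± 147 normalized counts (2.18), and Sdcbp (syntenin), which binds syndecan tails, rose from 4422 ± 501 to 10047 ± 40.9 (1.20). Notum, a lipase first described to cut the glypican anchor and now known to inactivate Wnt, fell by 1.80. Mmp9, a secreted gelatinase, had 239 ± 176 normalized counts in WT vehicle and 87.9 ± 12.1 in WT bleo, a log2 fold change of -1.45 that was -0.57 without WT vehicle replicate 2 (adjusted p = 0.000945). In Pear1-/- mice 9 were higher and 3 lower, 80.0% against 62.3% of all genes, with a median of 0.47. Furin rose by 2.16 and Mmp14, a membrane protease that sheds Sdc1, by 1.52, while Notum (-1.20) and Mmp9 (-1.012) fell. In Pear1-/- bleo, 6 were higher and 4 lower than in WT bleo, 66.7% against 46.0% of all genes, with a median of 0.08. Mmp9 was higher by 1.18, with 201 ± 19.9 normalized counts in Pear1-/- bleo, a call lost without WT bleo replicate 3 (adjusted p = 0.0643) or Pear1-/- bleo replicate 2 (adjusted p = 0.0544). The others are named after their values were seen. Higher were Hpse (0.92), Sulf1 (0.87), Mmp14 (0.83), Notum (0.51) and Prkca (0.38), and lower were Sulf2 (-0.70), Sdcbp (-0.49), Adam17 (-0.46) and Furin (-0.45). Sulf1 and Sulf2, which both remove sulfate groups from the chain, thus differed in opposite directions. The interaction was positive for 6 and negative for 3, 60.0% against 37.0% of all genes, a total that fell to 5 without Pear1-/- bleo replicate 3. Between the vehicle groups 2 genes passed, 13.3% against 4.5% of all genes. They were Furin (-0.42) and Tiam1 (-0.80), also named after their values were seen. That count was 10 without WT vehicle replicate 2 and 0 without any one other library.

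Genes with the most similar pattern to each tested member were found by Pearson's r of log2 CPM over the 12 libraries. The 12 points come in 4 groups of 3 and share depth and group, so r is a description and has no p. Gpc3 went with Cyr61 (0.998), Pdgfra (0.996) and Twsg1 (0.995). Sdc2 went with Gpsm2 (0.993), F2r (0.991) and Bmp5 (0.99), and its r with Gpc3 was 0.981. Gpc1 went with Adam12 (0.984), Stam2 (0.983) and the collagen gene Col11a1 (0.982). Gpc4 went with Dbn1 (0.984), Cttn (0.981) and Loxl3 (0.979), the first pair encoding actin-binding proteins. Sdc1 went with Angptl4 (0.998), Serpina3n (0.996) and the immunoglobulin segment Igkv4-63 (0.991). Its r with Gpc4 was 0.957. Gpc6 went with Cpxm2 (0.995), the club cell secretoglobin Scgb1a1 (0.994) and Il1f9 (0.994). Sdc3 went with Ifi30, Actb and Cotl1 (0.997 each), and Sdc4 with Trp53inp1 (0.992), Medag (0.991) and Steap4 (0.989). The neighbours Gpc3 and Gpc4 had an r of 0.05 with each other.

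Other marker lists described the libraries. Of the 6 fibroblast markers all were tested, and in WT bleo against WT vehicle 2 were higher (Col1a1 and Col1a2) and 4 lower (Pdgfra, Dcn, Lum and Tcf21). Leukocyte markers summed to 1853 to 2236 CPM in WT vehicle and 2184 to 2288 in Pear1-/- vehicle. Epithelial markers summed to 4748 to 6044 and 5684 to 6495 CPM there. Endothelial markers (6 genes) lay between 322.7 and 356 CPM in the vehicle groups and between 176 and 195 in the bleo groups, and B cell markers (4 genes) between 432 and 689.6 CPM in all libraries. Mesothelial markers (4 genes) were at most 37.15 CPM and pericyte and smooth muscle markers (4 genes) at most 129 CPM. No list had a marker at or under the floor throughout a group, so transcripts listed as markers of cells other than fibroblasts were present in every group of these sorted samples. Which cells they came from was not tested.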

How the data were processed

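Bulk RNA-seq libraries were made from sorted Pdgfra+ lung cells with the SMART-Seq v4 kit. Per the study's methods, the reads were aligned to GRCm38 (mm10) with HISAT2, and the counting program is not given in the sources used here. The authors deposited raw counts of 40760 genes in 12 libraries, with 6702948 to 10447101 counts per library. They also deposited a normalized signal, which equalled each count divided by its library's DESeq2 size factor within a relative deviation of 5.94e-10. Counts were tested with edgeR 4.0.16 (quasi-likelihood test, two-sided, TMM, filterByExpr, R 4.3.3) on all 12 libraries fitting a mean for each group, and p-values were adjusted over 17418 genes by Benjamini-Hochberg. A gene was called at an adjusted p under 0.05, and under a second rule also at a fold above 2. Standard errors were derived from the F statistic. The script was tested on simulated data. DESeq2 1.42.0, limma 3.58.1 on VST values, other filters and scaling, the replicate number as a block, only the groups compared, and leaving out each library in turn were the alternatives. The study's own test was limma with both criteria required together, which matches the second rule here and not the first.

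All 10 members were named. From each pathway list and comparison, up to 4 genes with the largest change were named among those called with a fold above 2 and an average log2 CPM no lower than 3, and for each tested member the 3 genes of highest correlation under the same CPM limit. Genes of the pathway lists outside this rule are said in the text to have been named after their values were seen. Markers other than Pdgfra were also named after their values were seen, whether they moved with their list, against it or did not pass the test. The members and lists were chosen with earlier results of these data known. Levels between genes were divided by exon length from GENCODE M21. Protein sequences are not analysed here.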

Additional observations from a re-analysis of the deposited data

Results flagged for a closer look

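Results were marked where the effect of bleo differed between Pear1-/- and WT by the interaction test of edgeR (adjusted p under 0.05). On the log2 scale the interaction was 1.20 for Gpc1, 0.85 for Gpc3, 1.28 for Gpc4, -0.81 for Gpc6, 0.97 for Sdc1, 1.14 for Sdc2 and -0.70 for Sdc3. Of the pathway lists, 11 heparan sulfate assembly genes and 9 of the shedding list passed the same test, and Xylt1, at -1.29, was the gene among them that also had a fold above 2 and an average log2 CPM no lower than 3. Of all genes tested, 37.0% passed. Dixon's test for a single outlying value was not applied to groups of 3 libraries.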

How the results depend on the processing

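The alternatives were 7 other settings and leaving out each of the 12 libraries. Outside leaving out a library, 266 values of single genes kept their direction and side of the threshold, 2 lost a call and 4 gained one, and 0 reversed. Over the same settings the named pathway genes kept 142 of their calls and lost 4, and leaving out a library kept 217 and lost 35, with 0 reversed. Leaving out WT vehicle replicate 2 reversed 2 changes after bleo in WT, Gpc1 to -0.017 and Sdc1 to 0.035, neither of them called, and over all 12 omissions these ranged from -0.017 to 0.23 and from -0.34 to 0.035. Without a filter on low counts, 19438 genes were called between WT bleo and WT vehicle, and the median of all genes there shifted by 0.133. Between the vehicle groups the same setting called 5638 genes, 3 members (Gpc5, Gpc6 and Sdc1, 1 with a fold above 2), 7 heparan sulfate assembly genes and 6 of the shedding list. In that comparison DESeq2 called 2 heparan sulfate assembly genes, limma called 1685 genes, and a fit of the vehicle libraries alone called 0 genes and 0 of either list, with 3091 genes at an unadjusted p under 0.05. With the replicate block, 703 genes were called there in place of 784, among them 1 gene of the shedding list. Same-numbered libraries had correlations of -0.161 to 0.0997 of their deviations from the group means, 0 of 18 over 0.1, and 3 libraries correlated best with their own number, so the numbers did not pair the libraries.

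Leaving out 1 library at a time gave 0 to 11258 genes called between the vehicle groups, 0 to 9 members (0 to 1 with a fold above 2), 0 to 13 heparan sulfate assembly genes and 0 to 10 of the shedding list, the highest each time without WT vehicle replicate 2, where Gpc5 entered the test through WT vehicle replicates 1 and 3 alone and makes up 1 of each member count. Heparan sulfate assembly genes ranged from 7 to 13 between the bleo groups and from 7 to 14 for the interaction, where the shedding list ranged from 5 to 12 and members with a fold above 2 from 2 to 5 (Gpc5 again among the 5). Without WT vehicle replicate 2 the median interaction of all genes shifted by -0.107. Leaving out any library lets edgeR's filter keep more genes, up to 20453. Depth limits Gpc2 and Gpc5, which had at most 22 counts in a library.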
